A study of Mus musculus with 8 samples.

Results

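The comparison described here set mouse macrophages exposed to interferon beta (IFNb) for 4 h against macrophages that received saline for 4 h, and rests on 4 of the 8 libraries in the series, 2 labelled IFNb and 2 labelled Saline. All 4 libraries came from male C57BL6 mice of 7 weeks, given their stimulus in the peritoneum, from which the labels say peripheral macrophages were obtained. Both groups carried no other agent or allele. The other 4 libraries, 2 given LPS (bacterial lipopolysaccharide) for 4 h and 2 given IFNb and then LPS, shared the same strain, sex and age; they entered the same model fit, and the LPS pair also served for 1 comparison. RNA was sequenced as total RNA, and levels are TPM, a unit that gives each library the same sum and corrects for transcript length, summed over the transcripts of a gene. Whether the replicates of a group are different animals is not stated, and p-values reflect only how far these libraries scatter, possibly for technical reasons.

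IFNb is a type I interferon, the family of cytokines that cells release when they sense viral or bacterial nucleic acid. It binds a receptor with a pair of chains, IFNAR1 and IFNAR2, whose kinases TYK2 and JAK1 phosphorylate STAT factors; among these, STAT2 joins IRF9 in a complex that binds the interferon-stimulated response element, a short DNA motif upstream of interferon-stimulated genes. In macrophages these genes encode antiviral enzymes, GTPases that attack the compartments of microbes inside the cell, sensors of foreign nucleic acid, the parts that load peptides on MHC class I, chemokines, and inhibitors that end the signal.

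The 4 libraries carried the general macrophage markers at high levels. Cd68, a lysosomal glycoprotein, had 3194 and 3325 TPM with IFNb, against 3367 and 2851 TPM with saline, and Lyz2, which encodes lysozyme, had 11588 and 11641 TPM with IFNb, against 17557 and 15340.0 TPM with saline. Adgre1, which encodes the macrophage surface protein F4/80, had 189 and 212 TPM with IFNb, against 287 and 243 TPM with saline. Levels of these 3 were similar between the groups or lower with IFNb. Of all 8 macrophage markers tested, 2 rose (Fcgr1 and Mertk) and 2 fell as deposited. After median-ratio rescaling, 2 rose and none fell. Gata6, the factor that defines resident large peritoneal macrophages, had only 0.911 and 0.872 TPM with IFNb, against 1.13 and 1.75 TPM with saline. It is 1 of 14 listed markers of these cells, of which 3 rose and 2 fell (after rescaling, 4 and 1). Together the 14 summed to 193 and 135 TPM with IFNb, against 129 and 187 TPM with saline. Markers of other cells were also read, summed over all listed genes, tested or not. The 12 B cell genes summed to 98.9 to 101.1 TPM with IFNb and 159.9 to 174 TPM with saline. As deposited 6 of them fell and none rose, and after rescaling 1 fell and 1 rose. Their median log2 fold change was -0.54 as deposited and -0.20 after rescaling, beside -0.37 and -0.03 for all genes tested. The 12 T and NK cell genes summed to 16.3 to 30.4 TPM with IFNb and 37.4 to 43.8 TPM with saline. Of the 10 that were tested, 2 fell as deposited and 1 after rescaling. Over all genes tested, 38.6% fell as deposited and 14.1% after rescaling. The 10 neutrophil genes summed to 268 to 335 TPM with IFNb and 302 to 386 TPM with saline. The 11 mesothelial and fibroblast genes summed to 45.8 to 91.6 TPM with IFNb and 37.0 to 107 TPM with saline. The neutrophil genes Ly6g, Ngp, Camp and Ltf and the NK cell genes Ncr1 and Klrb1c did not reach the level needed for testing (1 TPM in at least 2 libraries). Nearly all of the neutrophil sum thus came from the other members of that list. The 2 libraries of a group resembled each other more than the groups did: across genes, Pearson's r of log2(TPM + 1) was 0.982 within IFNb and 0.971 within saline, and 0.880 to 0.889 between the groups. Genes are not independent replicates. In bulk RNA, fewer cells of a type and less RNA per cell cannot be told apart, and the TPM of a gene also depend on the rest of the library.

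IFNb for 4 h altered the levels of a large share of the genes measured. Of 13009 genes tested with limma on log2(TPM + 1), 6717 (51.6%) passed an adjusted p of 0.05, of which 1697 (13%) rose and 5020 (38.6%) fell. Rises were larger than falls: 132 genes rose by a log2 fold change of at least 4 and 39 by at least 6, while 7 fell by at least 3. Genes that rose held 33.9% and 34.3% of all TPM with IFNb, against 11.8% and 11.7% with saline, and the 50 genes that gained most held 13.1% and 13.2% with IFNb, against 3.80% and 3.80% with saline. TPM sum to the same total in every library, and the median log2 fold change of all genes tested was -0.37. When the TPM were rescaled by the median ratio over genes, the median moved up by 0.34 to -0.03, 2321 genes (17.8%) rose and 1829 (14.1%) fell. Of the rises, 1696 were called under both scalings; of the falls, 1829 were. Without IFNb 1, 3339 genes fell as deposited. The falls named below also passed after median-ratio rescaling unless the text says otherwise, and the count after rescaling is given beside each group in which falls outnumber rises. Counts for a group are to be read beside the shares of all genes given here. Log2 fold changes below are mean log2(TPM + 1) with IFNb minus that with saline, with their standard error (SE).

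**Figure D1:**
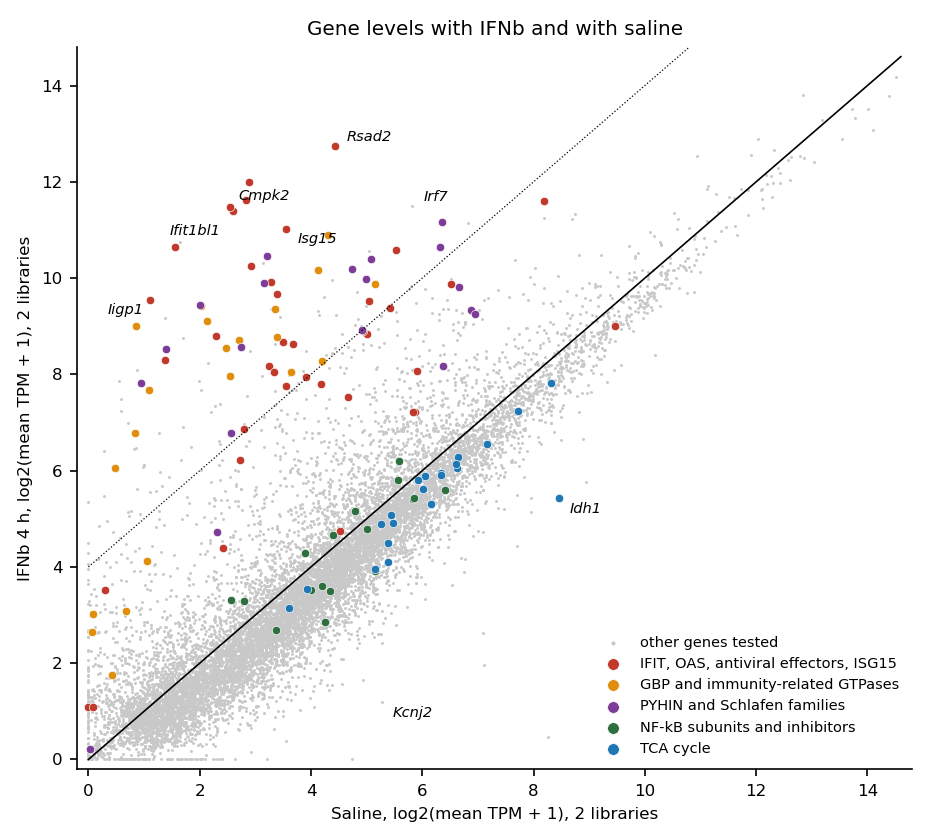
Level of each gene tested with IFNb (y axis) against saline (x axis), as log2 of the mean TPM of 2 libraries plus 1; the solid line marks equal levels and the dotted line a rise of 4 on the log2 scale. Colours mark gene families. The antiviral effectors, GTPases and p200 genes lie far above the line, many past the dotted one, where 132 genes lie by the fitted fold change, and the genes of the TCA cycle lie on or below it.

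The 15 largest rises among genes of at least moderate level were, in order, Ifit2, Cxcl10, Ifit1bl1, Cmpk2, Ifit3, Ifit1, Ifit3b, Rsad2, Iigp1, Cd69, Isg15, Tgtp2, Ifi213, Mx1 and Ccl12. Rsad2, which encodes viperin, an enzyme that makes a chain-terminating nucleotide, had 7031 and 6725 TPM with IFNb, against 20.8 and 20.3 TPM with saline (log2 fold change 8.32 ± 0.10, adjusted p = 1.01e-07). Cmpk2, a mitochondrial nucleotide kinase whose gene lies next to Rsad2, had 3036 and 2673 TPM with IFNb, against 4.84 and 4.85 TPM with saline (log2 fold change 8.93 ± 0.09, adjusted p = 9.85e-08). Cxcl10, a chemokine that draws activated T cells, had 1848 and 1610.1 TPM with IFNb, against 1.95 and 2.31 TPM with saline (log2 fold change 9.11 ± 0.12, adjusted p = 1.71e-07). For each of these 3 genes both IFNb libraries stood far above both saline libraries, and the 2 libraries of a group lay close together. The promoters of the 6 highest of these 15 genes with a match are printed below. They were picked for matching the core letters of the interferon-stimulated response element, and binding by STAT2 and IRF9 was not tested. Each is the 250 bases before the transcription start, read 5′ to 3′ on the gene's strand from RefSeq's GRCm38.p6; capitals mark every match to GAAANNGAA, the core of the interferon-stimulated response element, on either strand. The windows are Cxcl10 at chr5:92348890-92349139, minus strand, Ifit1bl1 at chr19:34601969-34602218, minus strand, Ifit3 at chr19:34583279-34583528, plus strand, Ifit1 at chr19:34640639-34640888, plus strand, Ifit3b at chr19:34607707-34607956, plus strand and Rsad2 at chr12:26456453-26456702, minus strand.

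Cxcl10: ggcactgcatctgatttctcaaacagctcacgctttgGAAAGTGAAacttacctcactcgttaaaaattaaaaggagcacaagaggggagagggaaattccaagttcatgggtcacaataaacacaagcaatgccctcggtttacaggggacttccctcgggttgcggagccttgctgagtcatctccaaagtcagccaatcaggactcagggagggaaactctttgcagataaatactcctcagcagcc
Ifit1bl1: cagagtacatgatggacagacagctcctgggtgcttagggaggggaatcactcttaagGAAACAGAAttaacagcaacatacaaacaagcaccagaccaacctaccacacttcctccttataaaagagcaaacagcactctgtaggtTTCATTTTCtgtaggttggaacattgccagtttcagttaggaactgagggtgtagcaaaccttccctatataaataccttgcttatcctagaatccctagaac
Ifit3: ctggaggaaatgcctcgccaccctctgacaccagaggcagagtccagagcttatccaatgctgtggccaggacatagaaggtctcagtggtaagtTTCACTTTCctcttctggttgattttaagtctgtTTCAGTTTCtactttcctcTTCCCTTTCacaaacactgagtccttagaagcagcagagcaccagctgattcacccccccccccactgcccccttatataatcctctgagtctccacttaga
Ifit1: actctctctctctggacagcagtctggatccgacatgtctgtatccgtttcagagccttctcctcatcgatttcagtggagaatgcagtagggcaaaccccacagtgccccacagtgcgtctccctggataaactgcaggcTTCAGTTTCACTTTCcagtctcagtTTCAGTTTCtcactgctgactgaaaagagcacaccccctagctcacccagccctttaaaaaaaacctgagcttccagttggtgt
Ifit3b: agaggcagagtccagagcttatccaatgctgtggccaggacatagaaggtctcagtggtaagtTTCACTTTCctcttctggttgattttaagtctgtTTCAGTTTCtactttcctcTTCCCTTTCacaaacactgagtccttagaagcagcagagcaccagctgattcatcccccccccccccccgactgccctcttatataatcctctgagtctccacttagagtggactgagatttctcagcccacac
Rsad2: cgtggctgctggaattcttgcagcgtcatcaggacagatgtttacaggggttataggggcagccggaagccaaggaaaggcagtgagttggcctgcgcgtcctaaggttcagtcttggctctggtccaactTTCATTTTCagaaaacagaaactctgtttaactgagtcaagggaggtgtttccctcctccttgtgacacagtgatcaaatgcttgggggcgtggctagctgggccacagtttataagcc

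Cxcl10 and Rsad2 have 1 match each, whose first letter lies 213 and 119 bases before the start. Ifit1bl1 has 2, between 103 and 192 bases before the start. Ifit3, Ifit1 and Ifit3b have 3 each, between 102 and 155, 84 and 109, and 134 and 187 bases before the start. The matches of Ifit3 and Ifit3b, neighbouring near-identical genes on chromosome 19, have the same spacing. The windows of Ifit2, Cmpk2 and Ccl12 hold no match, which says only that these letters are absent from those windows.

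Over all protein-coding genes tested outside chromosome 18 and the mitochondrial genome, 9250 of 11290 (81.9%) had a promoter in the RefSeq table, as windows of 250 bases before to 50 after the start, and a gene was counted when any of its windows held a motif on either strand. GAAANNGAA stood in 9.14% of these genes, in 17.5% of those that rose (218 of 1246), and in 63.3% of those that rose by log2 6 or more (19 of 30). Among genes that rose by less than 1 on the log2 scale it stood in 56 of 508, among those that neither rose nor fell in 8.73%, and among those that fell in 6.89%. Of these sets the share was highest where the rise was largest, and that of the smallest rises lay near the share of all genes. TTCNNNGAA, the gamma-activated site that paired STAT molecules bind, stood in 8.51% of all these genes, 8.91% of those that rose, 26.7% of those that rose by log2 6 or more (8 of 30), 7.02% of those that rose by log2 4 to 6 (4 of 57) and 8.14% of those that fell. GGGNNTTCC, a pattern like the NF-kB site, stood in 8.64%, 8.99%, 6.67% (2 of 30), 10.5% (6 of 57) and 8.50% of the same sets. Each pattern was counted on its own, so matches to different patterns may overlap. These shares are descriptions of sequence, and no test was run on them.

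**Figure D2:**
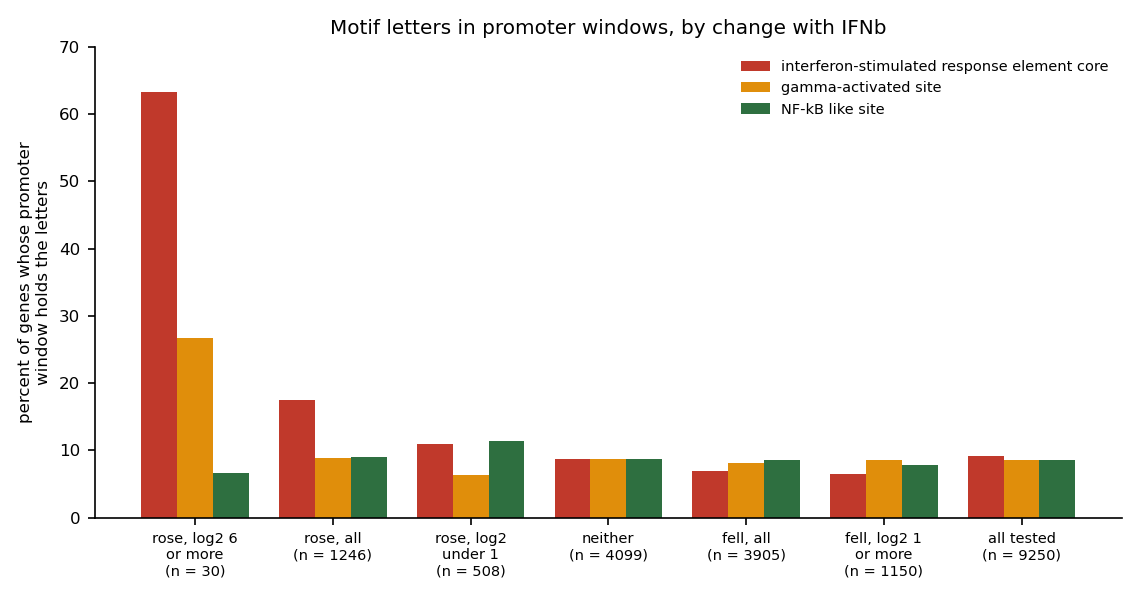
Percent of protein-coding genes whose promoter windows hold each of 3 motifs (bars), in 7 sets of genes grouped by their change with IFNb against saline, with the number of genes that have a promoter. The bar of the interferon-stimulated response element core reaches 63.3% in the set with the largest rises, against 9.14% of all genes, and the bars of the NF-kB like pattern stay between 6.67% and 11.4%.

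Neither receptor chain of the pathway passed the test as deposited, while Stat2, several IRF factors and several inhibitors rose. Ifnar1 had 74.2 and 72.7 TPM with IFNb, against 76.5 and 86.4 TPM with saline (log2 -0.15, adjusted p = 0.232). Ifnar2 had 174 and 164 TPM with IFNb, against 161 and 136 TPM with saline (log2 0.19, adjusted p = 0.14). Ifnar2 passed as a rise after median-ratio rescaling (log2 0.58) or without Saline 1 (adjusted p = 0.0257). Jak1, the kinase bound to IFNAR2, did not pass the test either (log2 0.01, adjusted p = 0.919). Tyk2, the kinase bound to IFNAR1, rose, with 34.0 and 34.4 TPM with IFNb, against 12.96 and 21.7 TPM with saline (log2 fold change 0.98 ± 0.22, adjusted p = 0.0108; adjusted p = 0.0513 without IFNb 2). Jak2, a kinase of the interferon gamma receptor, had 115 and 116 TPM with IFNb, against 19.8 and 20.2 TPM with saline (log2 fold change 2.47 ± 0.08, adjusted p = 2.31e-06). Ifngr1, the ligand-binding chain of the interferon gamma receptor, fell: it had 29.4 and 21.98 TPM with IFNb, against 131 and 124 TPM with saline (log2 fold change -2.28 ± 0.15, adjusted p = 7.16e-05). Of the 8 genes for interferon receptors and JAK kinases, 3 rose and 2 fell; the rises numbered 1 without IFNb 2, and the falls 1 without IFNb 1 or Saline 1.

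Stat2, the partner of IRF9, had 260.2 and 276 TPM with IFNb, against 13.3 and 13.8 TPM with saline (log2 fold change 4.21 ± 0.08, adjusted p = 3.96e-07). Its saline libraries lay close together, far below both IFNb libraries. Stat3, used by interleukin 6 and interleukin 10, rose less, with 192 and 175 TPM with IFNb, against 58.6 and 79.7 TPM with saline (log2 fold change 1.41 ± 0.17, adjusted p = 0.000989), and Stat5a, used by growth factors and common gamma-chain cytokines, fell (log2 -0.99, adjusted p = 0.000845). Among 8 interferon regulatory factors tested, 5 rose, none fell and the median log2 fold change was 1.37. Irf7, the factor that drives further type I interferon transcription, rose most, with 2707 and 3067 TPM with IFNb, against 71.5 and 39.2 TPM with saline (log2 fold change 5.74 ± 0.25, adjusted p = 1.06e-05). Irf1 (log2 3.34, adjusted p = 2.53e-06), Irf9 (log2 1.53, adjusted p = 5.44e-05), Irf2 (log2 1.80, adjusted p = 0.000139) and Irf5 (log2 1.21, adjusted p = 0.000346) also rose. Irf3, Irf4 and Irf8 did not pass the test, with log2 fold changes of -0.22, -0.07 and 0.17. Ifnb1 itself was at 0.229 and 0.101 TPM with IFNb and listed at 0 in both saline libraries (adjusted p = 0.68).

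Inhibitors of the signal rose strongly within the same 4 h. Socs1, which blocks JAK kinases, had 125 and 128 TPM with IFNb, against 0.344 and 0.936 TPM with saline (log2 fold change 6.30 ± 0.17, adjusted p = 1.17e-06). Usp18, which removes ISG15 and also blocks IFNAR2, had 813 and 808 TPM with IFNb, against 10.3 and 8.58 TPM with saline (log2 fold change 6.29 ± 0.10, adjusted p = 3.08e-07). Both genes stood at least as far apart between the groups as Stat2, on the log2 scale. Cish (log2 0.97, adjusted p = 0.00837; adjusted p = 0.0553 in a fit of the 4 libraries alone) and Socs2 (log2 1.63, adjusted p = 0.000989), of the same family as Socs1, rose from low levels in saline. Socs3 did not pass as deposited, with 13.1 and 9.31 TPM with IFNb, against 4.20 and 7.85 TPM with saline (log2 0.83, adjusted p = 0.0545), but passed as a rise without Saline 2 (adjusted p = 0.0191) and after rescaling (log2 1.16). Of 17 negative regulators tested, 7 rose and 5 fell (after rescaling, 8 and 1). Over all genes tested, 13% rose and 38.6% fell (after rescaling, 17.8% and 14.1%). The falls among the 17 were fewer when IFNb 1, IFNb 2 or Saline 2 was left out.

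The antiviral effectors rose almost as a block. Of 6 IFIT genes, which encode proteins that bind foreign RNA and restrain its translation, 5 rose, with a median log2 fold change over the 6 of 8.79 beside -0.37 for all genes. Ifit1 had 2938 and 2424 TPM with IFNb, against 5.55 and 4.59 TPM with saline (log2 fold change 8.78 ± 0.15, adjusted p = 3.11e-07). Ifit2 had 4193 and 3946 TPM with IFNb, against 7.37 and 5.46 TPM with saline (log2 fold change 9.11 ± 0.28, adjusted p = 2.03e-06). Ifit3 had 3094 and 3216 TPM with IFNb, against 6.86 and 5.45 TPM with saline (log2 fold change 8.79 ± 0.23, adjusted p = 1.08e-06). In all 3 the saline libraries stayed in single digits and lay far below the IFNb libraries. Ifit1bl2, the 1 member that did not pass, had 1.19 and 1.06 TPM with IFNb and was listed at 0 in both saline libraries. Ifit3 and Ifit3b share much of their sequence, so the split of TPM between them is uncertain.

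The OAS genes encode enzymes that make short oligoadenylate chains on sensing double-stranded RNA. Of 10 genes of this pathway tested, 9 rose and none fell (median log2 fold change 4.03). Oasl1, which has no such enzyme activity and limits Irf7 translation, had 849 and 1091 TPM with IFNb, against 11.7 and 5.63 TPM with saline (log2 fold change 6.71 ± 0.32, adjusted p = 1.55e-05). Oas3 had 397 and 396 TPM with IFNb, against 12.8 and 10.7 TPM with saline (log2 fold change 4.97 ± 0.11, adjusted p = 5.77e-07). Oasl2 had 1537 and 1522 TPM with IFNb, against 49.1 and 41.1 TPM with saline (log2 fold change 5.06 ± 0.12, adjusted p = 7.76e-07). The split between Oas1a, Oas1g and their near copies is uncertain.

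Of 17 other effectors that act on nucleic acids or virus particles, 16 rose and 1 fell, with a median of 4.03. Mx1, a dynamin-like GTPase that traps viral nucleoprotein, had 1215 and 1229 TPM with IFNb, against 5.83 and 7.33 TPM with saline (log2 fold change 7.34 ± 0.11, adjusted p = 2.41e-07); C57BL6 mice are known to carry a defective allele of it. Mx2, its paralogue, had 331 and 301 TPM with IFNb, against 0.825 and 2.36 TPM with saline (log2 fold change 7.00 ± 0.26, adjusted p = 5.34e-06). Isg20, an RNA exonuclease, had 441 and 442 TPM with IFNb, against 4.24 and 3.54 TPM with saline (log2 fold change 6.50 ± 0.11, adjusted p = 3.08e-07). These 3 genes stood far higher in both IFNb libraries than in both saline libraries, which were in single digits. Samhd1, which breaks down deoxynucleotides, had the highest level in saline of the effectors that rose and still rose, with 3059 and 3163 TPM with IFNb, against 269.7 and 312 TPM with saline (log2 fold change 3.42 ± 0.09, adjusted p = 1.25e-06). Eif2ak2, the kinase PKR that stops translation on sensing double-stranded RNA (log2 3.63, adjusted p = 3.96e-07), Adar, which edits adenosine in such RNA (log2 2.90, adjusted p = 7.33e-05), and Trex1, a DNA exonuclease (log2 4.03, adjusted p = 3.96e-07), rose as well. Apobec1, an RNA-editing cytidine deaminase, was the 1 member that fell as deposited, with 511 and 517 TPM with IFNb, against 706 and 703 TPM with saline (log2 -0.45, adjusted p = 0.00855), and it was not called after rescaling (log2 -0.06). All 6 genes of ISG15 conjugation, a ubiquitin-like modifier with its own enzymes, rose (median 4.35). Isg15, the modifier, had 2145 and 2004 TPM with IFNb, against 13.3 and 8.20 TPM with saline (log2 fold change 7.50 ± 0.20, adjusted p = 1.11e-06). Its E1 enzyme Uba7 (log2 3.98, adjusted p = 1.95e-06), E2 enzyme Ube2l6 (log2 3.99, adjusted p = 1.26e-05) and ligase Herc6 (log2 4.71, adjusted p = 2.41e-07) rose with it. Ifitm3, which blocks fusion of virus with endosomes, had 2427 and 2420.5 TPM with IFNb, against 315 and 263 TPM with saline (log2 fold change 3.07 ± 0.11, adjusted p = 4.29e-06).

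**Figure D3:**
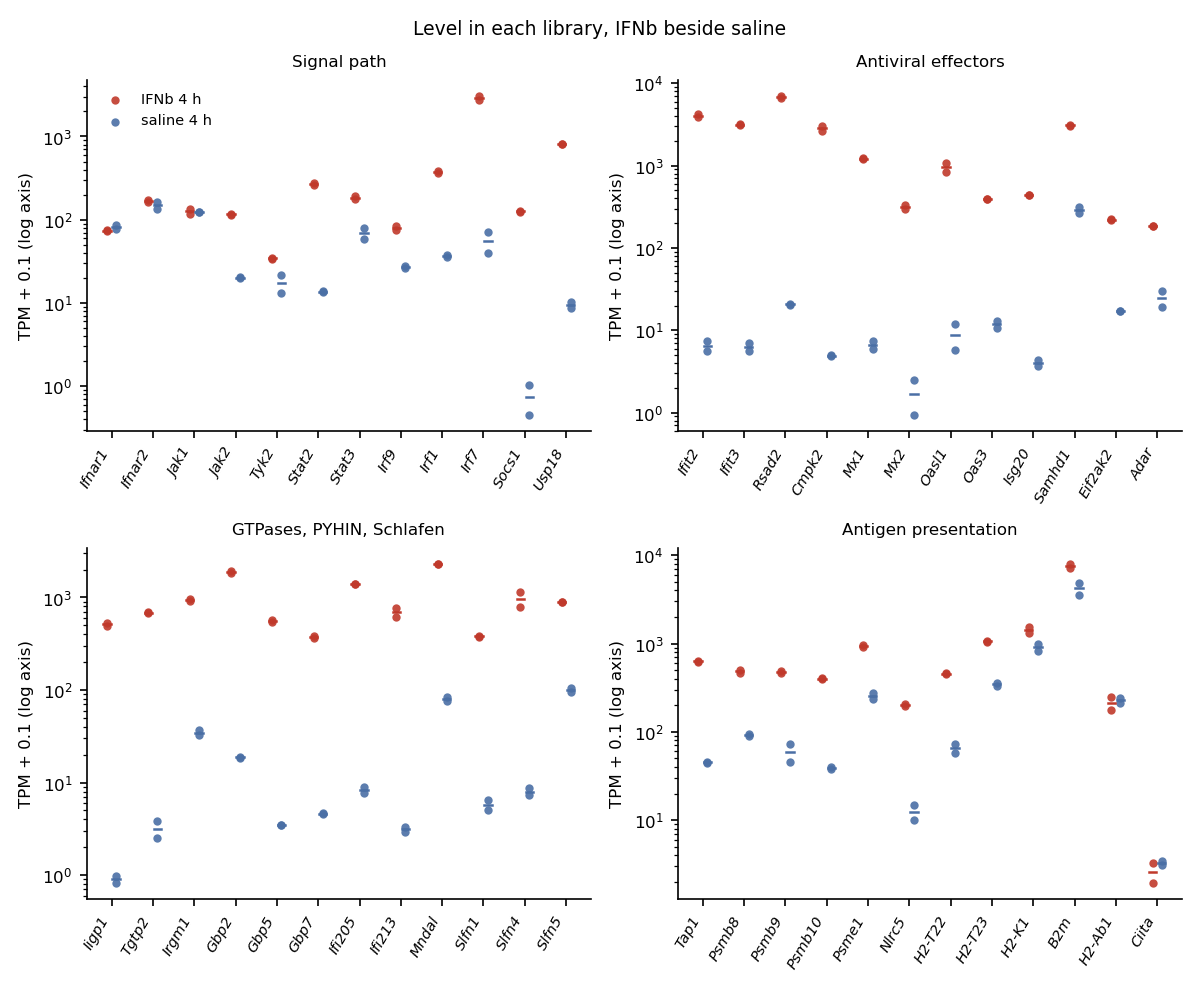
TPM plus 0.1 on a log axis for genes in 4 panels by role; each dot is a library, red for IFNb and blue for saline, and bars mark the mean of 2. The receptor genes Ifnar1 and Ifnar2 overlap or nearly touch between the groups, and the effectors, GTPases and p200 genes differ by factors of 10 or more in most columns, while H2-Ab1 and Ciita overlap.

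The GTPases that attack vacuoles of intracellular microbes rose without exception among those tested. All 10 guanylate-binding proteins rose, with a median log2 fold change of 5.69. Gbp2, which coats vacuoles and bacteria, had 1948 and 1841 TPM with IFNb, against 18.5 and 18.9 TPM with saline (log2 fold change 6.58 ± 0.07, adjusted p = 9.85e-08). Gbp5, linked to NLRP3 assembly, had 567 and 537 TPM with IFNb, against 3.38 and 3.36 TPM with saline (log2 fold change 6.98 ± 0.08, adjusted p = 9.85e-08). All 11 immunity-related and very large GTPases rose as well (median 5.58). Iigp1, an effector that loads onto vacuole membranes, had 494 and 529 TPM with IFNb, against 0.713 and 0.888 TPM with saline (log2 fold change 8.15 ± 0.12, adjusted p = 2.27e-07). Irgm1, a regulator that guards host membranes, had 953 and 927 TPM with IFNb, against 36.8 and 32.4 TPM with saline (log2 fold change 4.73 ± 0.09, adjusted p = 3.79e-07). The effector Iigp1 was under 1 TPM in both saline libraries, whereas the regulator Irgm1 already had a moderate level there. Tgtp2 rose by log2 7.42 (adjusted p = 1.85e-06), and its split from Tgtp1 is uncertain.

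Of 12 tested genes in the list of the PYHIN or p200 family, which bind DNA and sense it or regulate transcription, 11 rose (median 5.17). That list did not hold Ifi214, named below among the genes in no list. Ifi205 had 1410.1 and 1412 TPM with IFNb, against 7.65 and 8.95 TPM with saline (log2 fold change 7.25 ± 0.14, adjusted p = 3.96e-07). Mndal had 2278 and 2304 TPM with IFNb, against 84.4 and 77.0 TPM with saline (log2 fold change 4.81 ± 0.08, adjusted p = 3.05e-07). Ifi213 had 612 and 774 TPM with IFNb, against 2.86 and 3.22 TPM with saline (log2 fold change 7.42 ± 0.41, adjusted p = 2.93e-05). Levels in saline differed widely among these neighbours on chromosome 1: Ifi213 and Ifi205 stood in single digits and Mndal far higher. Ifi202b, known to be little expressed in C57BL6 mice, stayed under 1 TPM in all 4 libraries. All 7 Schlafen genes, growth regulators of which some restrict translation, rose (median 4.00). Slfn4 had 784 and 1132 TPM with IFNb, against 8.62 and 7.16 TPM with saline (log2 fold change 6.73 ± 0.26, adjusted p = 5.52e-06). Slfn5 had 903 and 887 TPM with IFNb, against 105 and 95.7 TPM with saline (log2 fold change 3.14 ± 0.09, adjusted p = 1.48e-06). Genes of the p200 and Schlafen families are close copies within each family, so reads could be split between them.

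Large families with mixed roles held both rises and falls. Over all genes tested, 13% rose and 38.6% fell (after rescaling, 17.8% and 14.1%), and the TRIM falls below lay near those shares. Among 16 PARP genes, which attach ADP-ribose, 11 rose and 4 fell (after rescaling, 11 and 2). Parp14 (log2 3.90, adjusted p = 7.76e-07), Parp12 (log2 3.57, adjusted p = 5.67e-07) and Parp11 (log2 3.57, adjusted p = 1.16e-06), mono-ADP-ribosyltransferases, rose most clearly. Parp1, the main DNA repair enzyme of the family, fell, with 14.5 and 12.9 TPM with IFNb, against 37.4 and 42.5 TPM with saline (log2 fold change -1.47 ± 0.16, adjusted p = 0.000557). Among 32 TRIM genes, mostly ubiquitin ligases, 13 rose and 11 fell (after rescaling, 13 and 4), and the falls numbered 7 without IFNb 2. Trim30c had 291 and 252 TPM with IFNb, against 0.843 and 0.828 TPM with saline (log2 fold change 7.21 ± 0.10, adjusted p = 1.80e-07), though its split from Trim30a, Trim30b and Trim30d is uncertain. Trim21, a receptor for antibody inside the cell, had 127 and 114 TPM with IFNb, against 9.92 and 9.49 TPM with saline (log2 fold change 3.50 ± 0.10, adjusted p = 1.34e-06), and Trim37 fell, with 2.55 and 2.65 TPM with IFNb, against 11.5 and 11.1 TPM with saline (log2 fold change -1.78 ± 0.19, adjusted p = 0.000543).

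**Figure D4:**
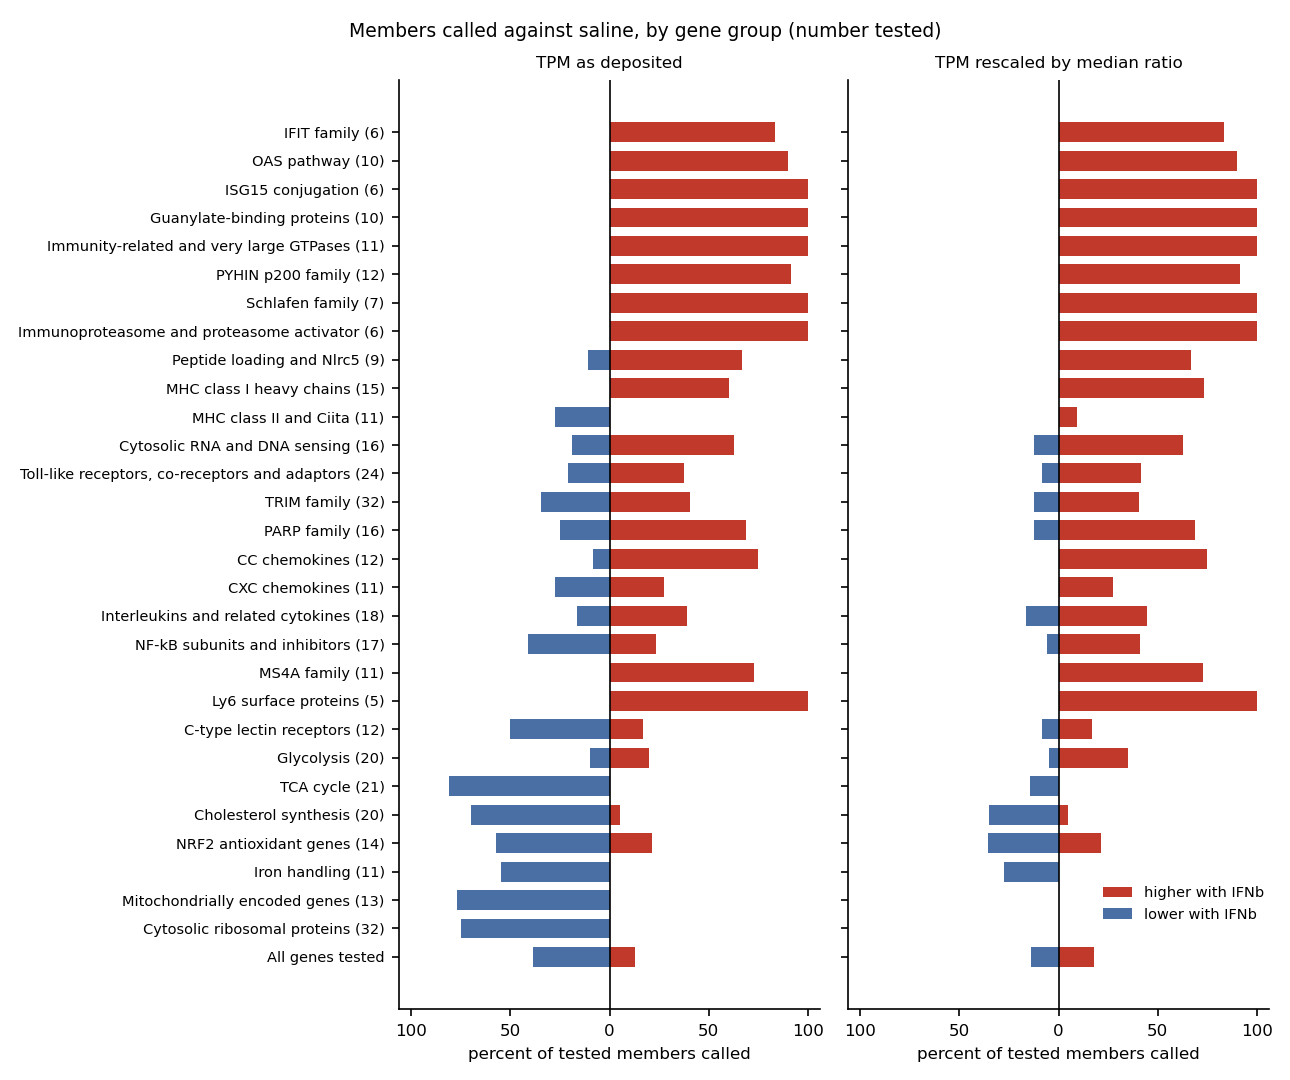
Percent of the tested members of 29 gene groups, and of all genes tested, called higher (right, red) or lower (left, blue) with IFNb against saline, for TPM as deposited and after median-ratio rescaling; group sizes are in brackets. The interferon families reach the top of the axis or near it as higher under both scalings, and the lower bars of the mitochondrially encoded and ribosomal groups vanish after rescaling.

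Most sensors of nucleic acid rose, and of their adaptors STING rose while that of the RNA sensors RIG-I and MDA5 fell. Of 16 genes of cytosolic RNA and DNA sensing, 10 rose and 3 fell (after rescaling, 10 and 2), with a median log2 fold change of 1.97. Ifih1, which encodes the RNA sensor MDA5, had 582 and 611 TPM with IFNb, against 16.8 and 16.7 TPM with saline (log2 fold change 5.07 ± 0.12, adjusted p = 6.81e-07). Zbp1, a sensor of Z-form nucleic acid, had 549.8 and 613 TPM with IFNb, against 10.2 and 9.59 TPM with saline (log2 fold change 5.74 ± 0.10, adjusted p = 3.08e-07). The RNA sensors Ddx58, for RIG-I (log2 4.32, adjusted p = 1.46e-05), and Dhx58, for LGP2 (log2 4.58, adjusted p = 3.96e-07), and the DNA sensor Cgas (log2 2.08, adjusted p = 1.94e-05) with its adaptor Tmem173, for STING (log2 1.89, adjusted p = 0.000423), rose too. Mavs, the mitochondrial adaptor of RIG-I and MDA5, fell, with 5.86 and 6.05 TPM with IFNb, against 14.1 and 15.9 TPM with saline (log2 fold change -1.20 ± 0.16, adjusted p = 0.00129).

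Among 24 genes for Toll-like receptors, their co-receptors and adaptors, 9 rose and 5 fell (after rescaling, 10 and 2). Over all genes tested, 13% rose and 38.6% fell (after rescaling, 17.8% and 14.1%). Of the endosomal receptors, several rose, Tlr3, Tlr7 and Tlr9 among them, and Tlr13 fell. Tlr3, for double-stranded RNA, had 152 and 142 TPM with IFNb, against 3.76 and 3.43 TPM with saline (log2 fold change 5.01 ± 0.11, adjusted p = 5.67e-07). Tlr9, for unmethylated DNA, had 50.8 and 75.8 TPM with IFNb, against 2.57 and 3.58 TPM with saline (log2 fold change 3.96 ± 0.32, adjusted p = 0.000184). Tlr7, for single-stranded RNA, had 197 and 204 TPM with IFNb, against 59.9 and 62.5 TPM with saline (log2 fold change 1.70 ± 0.09, adjusted p = 2.87e-05). In each of these 3, both IFNb libraries lay above both saline libraries. Tlr13, for bacterial ribosomal RNA, fell as deposited, with 111 and 111 TPM with IFNb, against 213 and 179 TPM with saline (log2 fold change -0.81 ± 0.13, adjusted p = 0.00274), and was not called after rescaling (log2 -0.42, adjusted p = 0.121). Tlr4, the receptor for LPS, had 61.9 and 73.4 TPM with IFNb, against 44.1 and 39.9 TPM with saline (log2 fold change 0.67 ± 0.13, adjusted p = 0.00672); its partners Cd14 (log2 -0.08, adjusted p = 0.82) and Ly96, for MD-2 (log2 -0.20, adjusted p = 0.381), did not pass. Cd180 and Ly86, which encode the paired surface proteins RP105 and MD-1 that resemble TLR4 and MD-2, rose together, by log2 2.04 and 2.32 (adjusted p = 0.000153 and 1.59e-05). The adaptor Myd88 rose (log2 2.07, adjusted p = 3.91e-06), while Ticam2, which bridges TLR4 to TRIF (log2 -1.29, adjusted p = 0.00129), and Irak3, an inhibitor of the pathway (log2 -1.38, adjusted p = 0.000331), fell. Tlr2 did not pass the test (log2 -0.07, adjusted p = 0.614).

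The class I side of antigen presentation rose, and as deposited no class II gene did. All 6 genes of the immunoproteasome and its activator rose (median log2 fold change 2.51). Psmb10 had 405 and 397 TPM with IFNb, against 40.1 and 37.3 TPM with saline (log2 fold change 3.34 ± 0.08, adjusted p = 6.81e-07). Psmb8 had 468 and 501 TPM with IFNb, against 93.9 and 90.7 TPM with saline (log2 fold change 2.38 ± 0.07, adjusted p = 2.25e-06); with Psmb9 (log2 3.04, adjusted p = 7.62e-05) they are the catalytic subunits that replace the constitutive ones. Of 9 genes for peptide loading and its transactivator, 6 rose and 1 fell as deposited, Canx, an endoplasmic reticulum chaperone (log2 -0.60, adjusted p = 0.00272), which was not called after rescaling (log2 -0.21, adjusted p = 0.324). Tap1, a chain of the peptide transporter, had 621 and 635 TPM with IFNb, against 44.5 and 45.9 TPM with saline (log2 fold change 3.77 ± 0.07, adjusted p = 3.78e-07). Nlrc5, the transactivator of class I genes, had 206 and 198 TPM with IFNb, against 9.93 and 14.7 TPM with saline (log2 fold change 3.95 ± 0.16, adjusted p = 7.99e-06). Among 15 class I genes, counting B2m, 9 rose and none fell. The non-classical H2-T22 had 454 and 459 TPM with IFNb, against 72.0 and 58.0 TPM with saline (log2 fold change 2.80 ± 0.11, adjusted p = 6.60e-06). The classical H2-K1 had 1305 and 1525 TPM with IFNb, against 994 and 826 TPM with saline (log2 fold change 0.64 ± 0.14, adjusted p = 0.00994; adjusted p = 0.061 without IFNb 2), and H2-D1 did not pass (log2 0.12, adjusted p = 0.457). B2m, the light chain, had 7170.5 and 7981 TPM with IFNb, against 4833 and 3592 TPM with saline (log2 fold change 0.86 ± 0.17, adjusted p = 0.00652). The non-classical gene thus differed by more than the classical ones, which were already abundant in saline; the split among H2-Q and H2-T genes is uncertain. H2-Ab1, a class II chain, had 179 and 248 TPM with IFNb, against 243 and 213 TPM with saline (log2 -0.11, adjusted p = 0.692). Ciita, the class II transactivator, had 1.81 and 3.15 TPM with IFNb, against 3.01 and 3.33 TPM with saline (log2 -0.29, adjusted p = 0.454). In both the groups overlapped. None of 11 class II genes rose and 3 of low level fell as deposited, 1 of them without IFNb 1, IFNb 2 or Saline 1; after rescaling none fell and 1, H2-DMa, a chaperone of class II loading, rose (log2 0.99); H2-DMa also passed as deposited without IFNb 1 (adjusted p = 0.0454).

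Ligands that stimulate and that restrain T cells rose side by side. Cd40, the receptor through which T cells license macrophages, had 184 and 215 TPM with IFNb, against 8.92 and 9.61 TPM with saline (log2 fold change 4.29 ± 0.16, adjusted p = 4.62e-06). Cd86, the costimulatory ligand of CD28, had 122 and 110.3 TPM with IFNb, against 8.51 and 11.9 TPM with saline (log2 fold change 3.40 ± 0.15, adjusted p = 1.15e-05). Cd274, which encodes the inhibitory ligand PD-L1, had 879.8 and 867 TPM with IFNb, against 66.3 and 64.6 TPM with saline (log2 fold change 3.72 ± 0.07, adjusted p = 3.86e-07), and Pdcd1lg2, for PD-L2, rose at low levels (log2 2.20, adjusted p = 0.000141). In these 4 genes the groups did not overlap. Vsir, which encodes the inhibitory protein VISTA, fell, with 43.1 and 41.6 TPM with IFNb, against 227 and 267 TPM with saline (log2 fold change -2.51 ± 0.10, adjusted p = 5.90e-06), as did Havcr2, for TIM-3 (log2 -1.55, adjusted p = 0.00122). Of 16 genes in the group, 8 rose and 4 fell (after rescaling, 9 and 2); the falls numbered 2 without IFNb 2 and 2 without Saline 2.

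Most CC chemokines and the CXCR3 ligands rose. Of 12 CC chemokines, 9 rose and 1 fell (none after rescaling), with a median log2 fold change of 1.35. The fall was Ccl22, which draws T cells (log2 -0.99, adjusted p = 0.0179; not called after rescaling or without IFNb 1, IFNb 2 or Saline 2, at adjusted p = 0.0598, 0.0873, 0.052 and 0.0845). The ligands of the monocyte receptor CCR2 were among the largest: Ccl2 had 746 and 569.9 TPM with IFNb, against 8.69 and 8.85 TPM with saline (log2 fold change 6.06 ± 0.21, adjusted p = 3.22e-06). Ccl7 had 511 and 352 TPM with IFNb, against 1.00 and 3.52 TPM with saline (log2 fold change 7.14 ± 0.39, adjusted p = 2.73e-05). Ccl12 had 250.2 and 216 TPM with IFNb, against 0.344 and 0.570 TPM with saline (log2 fold change 7.33 ± 0.16, adjusted p = 5.55e-07). For all 3 both IFNb libraries lay far above both saline libraries, which were in single digits or below. Ccl8 had 640.3 and 729 TPM with IFNb, against 48.4 and 13.1 TPM with saline (log2 fold change 4.70 ± 0.77, adjusted p = 0.00312); its saline libraries lay far apart. Ccl5, which draws T cells and monocytes, rose little, with 87.3 and 86.8 TPM with IFNb, against 46.2 and 45.6 TPM with saline (log2 fold change 0.91 ± 0.07, adjusted p = 0.000175). Of 11 CXC chemokines, 3 rose and 3 fell; after rescaling 3 rose and none fell, and as deposited the falls numbered 1 when any 1 of the 4 libraries was left out. The rises were the CXCR3 ligands Cxcl10, described above, Cxcl9 (log2 2.47, adjusted p = 0.00803) and Cxcl11 (log2 2.09, adjusted p = 0.000757). The falls were Cxcl14 (log2 -0.81, adjusted p = 0.0114; adjusted p = 0.0669 without IFNb 2 and 0.0516 without Saline 2), Cxcl16, a ligand of CXCR6 (log2 -0.39, adjusted p = 0.0415; adjusted p = 0.208 without IFNb 1 and 0.156 without Saline 1), and the neutrophil chemokine Cxcl3, which was near 0 TPM with IFNb (log2 -1.04, adjusted p = 0.0148; adjusted p = 0.0509 to 0.0612 when any 1 library was left out). Of the other neutrophil chemokines, Cxcl1 had 0.491 and 0.290 TPM with IFNb, against 0.953 and 1.05 TPM with saline (log2 -0.53, adjusted p = 0.0525) and Cxcl2 had 5.39 and 3.56 TPM with IFNb, against 5.01 and 5.24 TPM with saline (log2 -0.18, adjusted p = 0.496), and neither passed; with a pseudocount of 0.1 in place of 1, Cxcl1 passed as a fall (adjusted p = 0.00852).

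Cytokines moved both ways. Il10, an anti-inflammatory cytokine, had 15.7 and 16.9 TPM with IFNb, against 0.323 and 0.152 TPM with saline (log2 fold change 3.81 ± 0.13, adjusted p = 3.82e-06). Il27, the p28 chain of interleukin 27, had 31.1 and 38.3 TPM with IFNb, against 0.965 and 0.421 TPM with saline (log2 fold change 4.41 ± 0.18, adjusted p = 8.37e-06), while its partner Ebi3 did not pass (log2 -0.31, adjusted p = 0.106). Il15, which sustains NK and memory T cells, had 90.6 and 86.7 TPM with IFNb, against 10.1 and 10.6 TPM with saline (log2 fold change 2.98 ± 0.09, adjusted p = 1.80e-06). Il18 (log2 2.89, adjusted p = 6.72e-05) rose together with Il18bp, its soluble inhibitor (log2 3.71, adjusted p = 1.31e-05). Il1rn, the interleukin 1 receptor antagonist, had 966 and 767 TPM with IFNb, against 149 and 178 TPM with saline (log2 fold change 2.40 ± 0.14, adjusted p = 3.72e-05), while Il1a fell, with 4.57 and 3.48 TPM with IFNb, against 13.4 and 13.01 TPM with saline (log2 fold change -1.51 ± 0.15, adjusted p = 0.000417), and Il1b did not pass, with 2.76 and 5.70 TPM with IFNb, against 5.28 and 7.06 TPM with saline (log2 -0.50, adjusted p = 0.152), but passed as a fall without IFNb 2 (adjusted p = 0.013). Il6 rose to a low level, with 8.95 and 5.62 TPM with IFNb, against 0.168 and 0.635 TPM with saline (log2 fold change 2.55 ± 0.25, adjusted p = 0.000417). Il12b stayed under 1 TPM in all 4 libraries. Of 18 interleukins and related cytokines, 7 rose and 3 fell, and after rescaling 8 and 3. Among TNF superfamily ligands, Tnfsf10, the death ligand TRAIL, had 144 and 155 TPM with IFNb, against 0.483 and 0.514 TPM with saline (log2 fold change 6.65 ± 0.15, adjusted p = 6.09e-07). Tnf had 27.2 and 30.5 TPM with IFNb, against 7.06 and 6.69 TPM with saline (log2 fold change 1.92 ± 0.10, adjusted p = 2.78e-05); the 2 genes were both higher in each IFNb library than in each saline library, by very different factors.

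Genes of the NF-kB system, which LPS engages directly, split between rises, falls and members that did not pass. Nfkbia, the inhibitor induced first by NF-kB, had 49.6 and 60.3 TPM with IFNb, against 42.9 and 49.8 TPM with saline (log2 0.24, adjusted p = 0.15), and its IFNb and saline values lay close; after rescaling it passed as a rise (log2 0.62). Nfkb1 had 74.6 and 71.2 TPM with IFNb, against 41.6 and 52.0 TPM with saline (log2 fold change 0.64 ± 0.12, adjusted p = 0.00526). Nfkbiz, a nuclear co-activator, had 9.51 and 8.30 TPM with IFNb, against 4.03 and 5.76 TPM with saline (log2 fold change 0.76 ± 0.15, adjusted p = 0.00705). Tnip1, an inhibitor, fell (log2 -1.20, adjusted p = 0.00104). Of 17 genes, 4 rose and 7 fell (after rescaling, 7 and 1). The rises numbered 2 without IFNb 1, 2 without IFNb 2 and 2 without Saline 1, and the falls 2 without IFNb 1, 3 without IFNb 2 and 2 without Saline 2. The median log2 fold change was -0.41, near the -0.37 of all genes.

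Several caspases and pore proteins of inflammatory and other cell death rose. Casp4, which encodes the caspase 11 that binds LPS in the cytosol, had 268 and 249.7 TPM with IFNb, against 22.2 and 24.1 TPM with saline (log2 fold change 3.43 ± 0.08, adjusted p = 6.81e-07). Casp1 had 509 and 506 TPM with IFNb, against 113 and 98.9 TPM with saline (log2 fold change 2.25 ± 0.09, adjusted p = 7.16e-06). Gsdmd, the pore protein both cleave, had 89.0 and 88.2 TPM with IFNb, against 39.8 and 40.8 TPM with saline (log2 fold change 1.12 ± 0.07, adjusted p = 6.72e-05), and the adaptor Pycard (log2 0.88, adjusted p = 0.000744) and the DNA sensor Aim2 (log2 1.79, adjusted p = 1.97e-05) rose too. Nlrp3, the sensor that LPS primes, did not pass, with 5.20 and 5.54 TPM with IFNb, against 6.13 and 5.82 TPM with saline (log2 -0.13, adjusted p = 0.491). In all, 6 of 14 genes of this group rose and 1 fell (none after rescaling). Mlkl, the pore protein of necroptosis, had 212 and 197 TPM with IFNb, against 12.6 and 10.6 TPM with saline (log2 fold change 4.03 ± 0.11, adjusted p = 1.17e-06). Casp8, which starts apoptosis at death receptors, had 234 and 215 TPM with IFNb, against 68.2 and 49.8 TPM with saline (log2 fold change 1.93 ± 0.16, adjusted p = 0.000204). For both the 2 IFNb libraries lay well above the 2 saline libraries. Bid and Bak1, which act on mitochondria, rose by log2 1.78 and 0.86 (adjusted p = 0.000492 and 0.000531), and Bcl2l11, for the related BIM, fell (log2 -1.22, adjusted p = 0.00542). Casp6, another caspase, fell as deposited (log2 -0.56, adjusted p = 0.0309) and was not called after rescaling or without IFNb 1, IFNb 2 or Saline 2 (adjusted p = 0.349, 0.0728, 0.139 and 0.118). Of 26 genes of apoptosis and necroptosis, 10 rose and 4 fell (after rescaling, 13 and 1), and the falls numbered 2 without IFNb 2.

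Surface families differed in how their members changed. Fcgr1, the high-affinity receptor for IgG, had 691 and 739 TPM with IFNb, against 62.2 and 54.3 TPM with saline (log2 fold change 3.60 ± 0.09, adjusted p = 8.86e-07). Fcgr4 had 604 and 632 TPM with IFNb, against 109 and 98.4 TPM with saline (log2 fold change 2.57 ± 0.08, adjusted p = 2.53e-06); Fcgr2b, the inhibitory receptor, and Fcgr3 did not pass as deposited (log2 0.07 and 0.10), and Fcgr3 passed as a rise after rescaling (log2 0.49). All 5 Ly6 genes tested rose (median 2.59), among them Ly6a, for SCA-1, with 154 and 297 TPM with IFNb, against 12.4 and 12.7 TPM with saline (log2 fold change 3.99 ± 0.33, adjusted p = 0.000189), and Ly6e, which blocks coronavirus entry (log2 2.59, adjusted p = 9.70e-05). Of 11 MS4A genes, tetraspanning membrane proteins, 8 rose and none fell (median 2.24), led by Ms4a4c with 1022 and 1511 TPM with IFNb, against 9.23 and 6.44 TPM with saline (log2 fold change 7.16 ± 0.37, adjusted p = 2.30e-05). Cd69, which keeps lymphocytes in tissue by binding the sphingosine phosphate receptor, had 589 and 565 TPM with IFNb, against 1.76 and 1.45 TPM with saline (log2 fold change 7.79 ± 0.15, adjusted p = 3.96e-07). Of 6 CD300 receptors, 1 rose and 4 fell (after rescaling, 1 and 2): Cd300lf rose, with 743 and 681 TPM with IFNb, against 281 and 294 TPM with saline (log2 fold change 1.31 ± 0.08, adjusted p = 4.10e-05), and Cd300lb fell, with 45.4 and 42.1 TPM with IFNb, against 198 and 215 TPM with saline (log2 fold change -2.21 ± 0.13, adjusted p = 3.92e-05). The chemoattractant receptors Cxcr4, with 35.0 and 36.9 TPM with IFNb, against 192 and 159.5 TPM with saline (log2 fold change -2.25 ± 0.16, adjusted p = 0.000112), and C5ar1, for the complement peptide C5a, with 25.3 and 22.8 TPM with IFNb, against 115 and 123 TPM with saline (log2 fold change -2.27 ± 0.13, adjusted p = 3.18e-05), fell.

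Some of these surface genes also mark monocytes, and the whole marker list was read beside them. Of 11 tested genes that mark monocytes and small peritoneal macrophages, 4 rose, 2 fell and the rest did not pass. All 12 listed genes, tested or not, summed to 1132 to 1249 TPM with IFNb and 686 to 828 TPM with saline. Ly6c2 had 67.1 and 110.0 TPM with IFNb, against 9.81 and 6.04 TPM with saline (log2 fold change 3.32 ± 0.35, adjusted p = 0.000586). Vcan, the proteoglycan versican, had 173 and 150.2 TPM with IFNb, against 2.44 and 5.18 TPM with saline (log2 fold change 5.14 ± 0.27, adjusted p = 2.50e-05), and Plac8 rose by log2 3.87 (adjusted p = 2.05e-05). Ccr2, the receptor that defines inflammatory monocytes, had 23.4 and 22.8 TPM with IFNb, against 34.1 and 31.5 TPM with saline (log2 -0.49, adjusted p = 0.0751) and did not pass. Cx3cr1, a fractalkine receptor, fell, with 0.666 and 0.393 TPM with IFNb, against 5.46 and 5.61 TPM with saline (log2 fold change -2.10 ± 0.19, adjusted p = 0.000263), as did S100a4 (log2 -0.85, adjusted p = 0.00149). The part of cell composition in the rises was not tested. Lists for B, T and NK, mast, dendritic, mesothelial and erythroid cells, neutrophils and eosinophils together held 3 genes that rose as deposited. These were Hdc, which makes histamine, and the dendritic cell genes Clec9a and Xcr1, the last not called without IFNb 1 (log2 0.63). More genes of these lists fell as deposited, among them 6 of 12 tested B cell genes and 2 of 10 T and NK cell genes. Of 8 tested dendritic cell genes, 2 rose and 2 fell (after rescaling, 2 and 1). They summed to 10.5 and 15.7 TPM with IFNb, against 14.5 and 15.2 TPM with saline. Over all genes tested, 13% rose and 38.6% fell (after rescaling, 17.8% and 14.1%).

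Metabolic genes showed large single changes, and their groups differed in how far they followed the shift of all genes. Of 17 genes of NADPH oxidase, nitric oxide and arginine, 7 rose and 8 fell (after rescaling, 7 and 3). The shares of all genes tested were 13% for rises and 38.6% for falls (after rescaling, 17.8% and 14.1%). Idh1, the cytosolic isocitrate dehydrogenase that supplies NADPH, had 41.1 and 42.6 TPM with IFNb, against 361 and 339 TPM with saline (log2 fold change -3.03 ± 0.13, adjusted p = 7.99e-06), the second largest fall among genes of at least moderate level. Acod1, which turns the TCA intermediate aconitate into itaconate, had 396 and 397 TPM with IFNb, against 8.32 and 10.01 TPM with saline (log2 fold change 5.29 ± 0.11, adjusted p = 4.70e-07). Of 21 TCA cycle genes none rose and 17 fell as deposited, but the falls numbered 3 after rescaling (Idh1, Idh2 and Aco1) and 8 without IFNb 1 as deposited. Over all genes tested, 38.6% fell as deposited and 14.1% after rescaling, so the 3 falls left of 21 lay near that share. Nos2, the inducible nitric oxide synthase, rose to a low level, with 11.04 and 7.92 TPM with IFNb, against 0.0741 and 0.116 TPM with saline (log2 fold change 3.24 ± 0.32, adjusted p = 0.000426). Genes that feed it rose more in TPM: Gch1, which starts synthesis of its cofactor, had 103 and 94.2 TPM with IFNb, against 11.6 and 11.9 TPM with saline (log2 fold change 2.96 ± 0.08, adjusted p = 1.50e-06). Ass1, which recycles citrulline to arginine, had 40.8 and 42.3 TPM with IFNb, against 7.95 and 7.96 TPM with saline (log2 fold change 2.25 ± 0.10, adjusted p = 1.25e-05). Arg1 did not pass, and its replicates lay far apart, with 1589 and 655 TPM with IFNb, against 430.5 and 889.6 TPM with saline (log2 0.72, adjusted p = 0.451). Hvcn1, the proton channel that balances charge for NADPH oxidase, fell, with 12.6 and 15.001 TPM with IFNb, against 108 and 105 TPM with saline (log2 fold change -2.86 ± 0.12, adjusted p = 8.40e-06), as did the oxidase subunit Ncf4 (log2 -1.15, adjusted p = 0.000168).

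Genes of iron handling fell where they changed: of 11 genes none rose and 6 fell (3 after rescaling). For the counts of falls in this and the next groups, the share over all genes was 38.6% (14.1% after rescaling). Tfrc, the transferrin receptor that brings in iron, had 16.98 and 16.9 TPM with IFNb, against 114 and 103 TPM with saline (log2 fold change -2.61 ± 0.20, adjusted p = 0.000127). Fth1, the heavy chain of the iron store ferritin, had 8708 and 8643 TPM with IFNb, against 16765 and 18322 TPM with saline (log2 fold change -1.01 ± 0.09, adjusted p = 0.000258), and Slc11a1, the phagosomal metal pump NRAMP1, fell too (log2 -0.89, adjusted p = 0.00192). Of 20 genes of cholesterol synthesis, 1 rose and 14 fell (after rescaling, 1 and 7; as deposited, 9 without IFNb 1). Dhcr7, which makes cholesterol in the last step of a branch, had 6.87 and 5.45 TPM with IFNb, against 23.8 and 22.2 TPM with saline (log2 fold change -1.75 ± 0.23, adjusted p = 0.00143). Hmgcs1, an early enzyme, had 19.2 and 21.5 TPM with IFNb, against 51.7 and 45.7 TPM with saline (log2 fold change -1.22 ± 0.14, adjusted p = 0.000858). Among 15 targets of the sterol receptor LXR and lipid handling genes, 10 fell (3 after rescaling) and 1, the cholesterol exporter Abcg1, rose (log2 0.79, adjusted p = 0.00353); its partner exporter Abca1 fell (log2 -1.33, adjusted p = 0.00738). Of 14 antioxidant genes of the NRF2 programme, 3 rose and 8 fell (after rescaling, 3 and 5). Keap1, which marks NRF2 for breakdown, rose, with 81.5 and 91.0 TPM with IFNb, against 19.8 and 25.3 TPM with saline (log2 fold change 1.90 ± 0.13, adjusted p = 8.60e-05), and Txnrd1 fell, with 26.3 and 22.6 TPM with IFNb, against 84.1 and 89.6 TPM with saline (log2 fold change -1.79 ± 0.12, adjusted p = 6.56e-05), as did Gclc, which starts glutathione synthesis (log2 -1.70, adjusted p = 0.000133), and Nfe2l2 itself (log2 -0.97, adjusted p = 0.000531). All falls of the 10 mitochondrially encoded genes of 13 and the 24 ribosomal protein genes of 32 were lost after rescaling, so their direction relative to other genes was not called.

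Among genes in none of the lists, the largest rises at moderate or higher level were Lipg, Serpina3g, Calhm6, Fgl2, Tmem171, Mmp13, Enpp4, Klrk1, Ifi214, Slco3a1, Helz2, Gnb4, Upp1, Dck and Aldh1b1. Lipg, endothelial lipase, had 63.0 and 104 TPM with IFNb, against 0.297 and 0.127 TPM with saline (log2 fold change 6.09 ± 0.28, adjusted p = 1.23e-05). Fgl2, a fibrinogen-like prothrombinase, had 738 and 825 TPM with IFNb, against 19.4 and 16.2 TPM with saline (log2 fold change 5.38 ± 0.14, adjusted p = 1.00e-06). Mmp13, a collagenase, had 898 and 779 TPM with IFNb, against 26.3 and 28.2 TPM with saline (log2 fold change 4.89 ± 0.18, adjusted p = 4.33e-06). Klrk1, the NKG2D receptor best known from NK and T cells, had 79.3 and 98.4 TPM with IFNb, against 1.81 and 3.34 TPM with saline (log2 fold change 4.68 ± 0.25, adjusted p = 2.54e-05). Of the 12 listed T and NK cell genes, Ncr1 and Klrb1c, which define NK cells, were under the level for testing. Of the 10 tested, 0 rose and 2 fell (after rescaling, 0 and 1), beside 13% and 38.6% of all genes (after rescaling, 17.8% and 14.1%). Which cells carried Klrk1 was not tested. Enzymes of nucleoside salvage were among them, Upp1 for uridine (log2 4.18, adjusted p = 5.47e-06) and Dck for deoxycytidine (log2 4.04, adjusted p = 3.53e-06); Pnp, which splits purine nucleosides and is near-identical to Pnp2, had 2271 and 2253 TPM with IFNb, against 125 and 99.3 TPM with saline (log2 fold change 4.33 ± 0.11, adjusted p = 1.11e-06).

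The 15 largest falls were Kcnj2, Idh1, Susd3, Hvcn1, Glul, Sesn1, Wwp1, Sgms1, Dmxl2, Gadd45a, Tfrc, Dtx4, Sephs2, Prkag2 and Tgfbr1. Kcnj2, the inward rectifier potassium channel Kir2.1, had 0.993 and 1.56 TPM with IFNb, against 38.7 and 36.7 TPM with saline (log2 fold change -4.10 ± 0.21, adjusted p = 1.94e-05). Glul, glutamine synthetase, had 41.0 and 27.4 TPM with IFNb, against 222 and 269 TPM with saline (log2 fold change -2.83 ± 0.20, adjusted p = 9.92e-05). Sesn1, a sestrin that restrains mTORC1, had 5.38 and 6.49 TPM with IFNb, against 48.8 and 41.3 TPM with saline (log2 fold change -2.73 ± 0.15, adjusted p = 3.18e-05). In each of the 3 both IFNb libraries lay well below both saline libraries. Gadd45a, a stress gene, had 5.49 and 4.60 TPM with IFNb, against 36.3 and 35.8 TPM with saline (log2 fold change -2.62 ± 0.12, adjusted p = 1.30e-05). Tgfbr1, a kinase chain of the TGF-beta receptor, had 15.5 and 18.7 TPM with IFNb, against 111 and 93.5 TPM with saline (log2 fold change -2.52 ± 0.24, adjusted p = 0.00037). Of 15 transcription factors of the macrophage lineage, 2 rose and 7 fell (after rescaling, 2 and 4); as deposited, the rises numbered 1 without IFNb 1, Saline 1 or Saline 2, and the falls 4 without Saline 2. Over all genes tested, 13% rose and 38.6% fell (after rescaling, 17.8% and 14.1%). Pparg (log2 -1.64, adjusted p = 0.000588) and Cebpa (log2 -1.10, adjusted p = 0.00254) fell, and Maf rose (log2 1.33, adjusted p = 0.000531).

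Within genes, the share of each transcript was compared in 27354 transcripts of 6578 genes. By limma's diffSplice 596 (2.18%) changed share, in 426 genes, and 114 (0.417%), in 80 genes, were also called by a test of the log ratio of the transcript to the rest of its gene; the 596 became 282 without IFNb 1, 345 without IFNb 2 and 375 without Saline 2. These shares are kallisto's split of reads between overlapping transcripts, and in several the 2 saline libraries differed. Nt5c3, a pyrimidine nucleotidase that rose as a gene, with 512 and 526 TPM with IFNb, against 27.7 and 25.9 TPM with saline (log2 fold change 4.22 ± 0.10, adjusted p = 6.81e-07), shifted its makeup. Transcript Nt5c3-202 held 89.4% and 89.2% of the gene's TPM with IFNb, against 68.7% and 66.7% with saline (adjusted p = 4.46e-06 by diffSplice and 0.0193 by the log ratio). Nt5c3-201 held 0.279% and 0.410% of the gene's TPM with IFNb, against 9.42% and 8.33% with saline (adjusted p = 4.22e-07 by diffSplice and 0.00703 by the log ratio). Both replicates gave nearly the same shares in each group. Ift46-212, of an intraflagellar transport gene, had the largest shift that both tests called among genes with at least 20 TPM in each of the 4 libraries and no overlap in shares. It held 59.1% and 44.6% of the gene's TPM with IFNb, against 4.42% and 6.14% with saline (adjusted p = 0.0273 by diffSplice and 0.0254 by the log ratio). Its call by diffSplice was lost without IFNb 1, Saline 1 or Saline 2 (adjusted p = 0.0923, 0.183 and 0.169). Tbc1d1-202, of a gene for a Rab GTPase-activating protein, held 42.8% and 40.7% of the gene's TPM with IFNb, against 0.728% and 0.177% with saline (adjusted p = 2.12e-08 by diffSplice and 0.00871 by the log ratio). Tsc22d1-201, of a leucine zipper gene, held 50.9% and 42.3% of the gene's TPM with IFNb, against 13.1% and 8.03% with saline (adjusted p = 8.66e-07 by diffSplice and 0.0315 by the log ratio). In Tbc1d1 the transcript was near 0 in both saline libraries, and in Tsc22d1 it was a minor form there. Pml, which builds nuclear bodies, gave Pml-202 0.00378% and 0.00339% of the gene's TPM with IFNb, against 23.9% and 4.19% with saline (adjusted p = 1.23e-05 by diffSplice and 0.0315 by the log ratio); the 2 saline libraries differed several-fold. Irf7-201 held 8.87% and 8.01% of the gene's TPM with IFNb, against 0.134% and 0.393% with saline (adjusted p = 5.01e-05 by diffSplice and 0.0698 by the log ratio), called by diffSplice alone.

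Because LPS also leads macrophages to make interferon, the IFNb libraries were set against those given LPS for 4 h. Of the 13009 genes, 2871 (22.1%) were higher with IFNb than with LPS and 2158 (16.6%) lower; without IFNb 2 the lower ones numbered 1423. The interferon families were mostly higher with IFNb. Among guanylate-binding proteins 9 of 10 genes were higher with IFNb than with LPS and 1 lower, and among the immunity-related GTPases 11 of 11 genes were higher with IFNb than with LPS and 0 lower. Ifit1bl1 had 1634 and 1577 TPM with IFNb, against 26.2 and 17.2 TPM with LPS (log2 fold change against LPS 6.17 ± 0.17, adjusted p = 3.45e-06). Iigp1 had 494 and 529 TPM with IFNb, against 19.5 and 15.7 TPM with LPS (log2 fold change against LPS 4.79 ± 0.12, adjusted p = 3.08e-06). Fgl2 had 738 and 825 TPM with IFNb, against 21.4 and 17.6 TPM with LPS (log2 fold change against LPS 5.26 ± 0.14, adjusted p = 3.19e-06). These 3 genes were far lower in both LPS libraries. Tnfsf10 (log2 fold change against LPS 4.66 ± 0.15, adjusted p = 4.34e-06), Tlr3 (log2 fold change against LPS 3.74 ± 0.11, adjusted p = 3.75e-06) and Fcgr1 (log2 fold change against LPS 3.84 ± 0.09, adjusted p = 3.08e-06) were also higher with IFNb. Tlr4 differed in both comparisons, with 61.9 and 73.4 TPM with IFNb, against 12.2 and 10.6 TPM with LPS (log2 fold change against LPS 2.47 ± 0.13, adjusted p = 3.13e-05). Not all genes with large rises against saline behaved so. Cxcl10 had 1848 and 1610.1 TPM with IFNb, against 2901 and 3206 TPM with LPS (log2 fold change against LPS -0.82 ± 0.12, adjusted p = 0.00208). Of the 11 CXC chemokines tested, 7 were lower with IFNb than with LPS and 0 higher. Gbp5 was also lower (log2 fold change against LPS -0.35 ± 0.08, adjusted p = 0.0113). It was not called without IFNb 2 or LPS 1 (log2 fold change -0.31 and -0.33). Oasl1 did not pass (log2 fold change against LPS 0.07 ± 0.32, adjusted p = 0.889).

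Most genes of the NF-kB system and most inflammatory cytokines tested were lower with IFNb. Among NF-kB subunits and inhibitors 0 of 17 genes were higher with IFNb than with LPS and 15 lower, with a median log2 fold change of -2.63. Among interleukins and related cytokines 4 of 18 genes were higher with IFNb than with LPS and 14 lower. Il1b had 2.76 and 5.70 TPM with IFNb, against 6242 and 5628 TPM with LPS (log2 fold change against LPS -10.21 ± 0.26, adjusted p = 3.13e-06). Cxcl1 had 0.491 and 0.290 TPM with IFNb, against 761 and 686 TPM with LPS (log2 fold change against LPS -9.03 ± 0.19, adjusted p = 3.08e-06). Tnf had 27.2 and 30.5 TPM with IFNb, against 2238 and 1925 TPM with LPS (log2 fold change against LPS -6.12 ± 0.10, adjusted p = 1.62e-06). In all 3 the IFNb libraries stood far below the LPS libraries. Against saline, Tnf rose with IFNb, as described above, while Il1b and Cxcl1 did not pass as deposited. Ptgs2, the inducible cyclooxygenase, had 2.84 and 2.03 TPM with IFNb, against 505 and 439.6 TPM with LPS (log2 fold change against LPS -7.11 ± 0.22, adjusted p = 4.20e-06). Nfkbia had 49.6 and 60.3 TPM with IFNb, against 1364 and 1530.2 TPM with LPS (log2 fold change against LPS -4.70 ± 0.12, adjusted p = 3.19e-06). Ccl5 was lower with IFNb (log2 fold change against LPS -5.00 ± 0.07, adjusted p = 1.62e-06), whereas Ccl12 was higher, with 250.2 and 216 TPM with IFNb, against 15.05 and 18.02 TPM with LPS (log2 fold change against LPS 3.74 ± 0.16, adjusted p = 1.22e-05). The comparisons with saline and with LPS share the IFNb libraries.

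**Figure D5:**
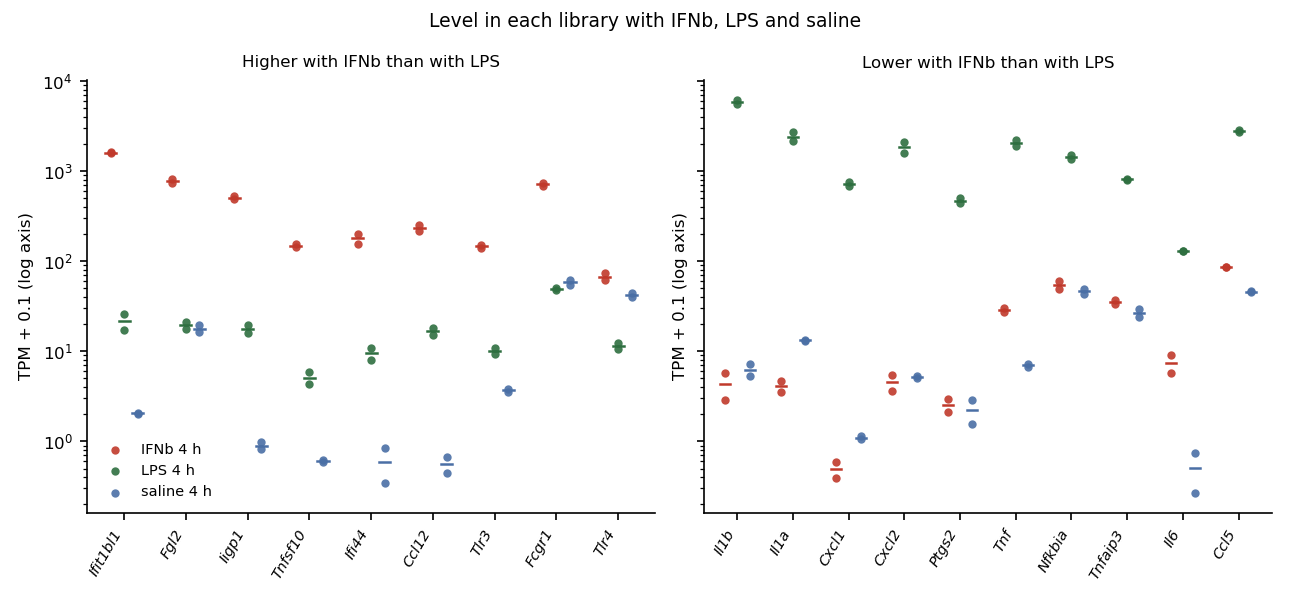
TPM plus 0.1 on a log axis in each library given IFNb (red), LPS (green) or saline (blue), for 9 genes higher with IFNb than with LPS (left) and 10 lower (right); bars mark the mean of 2 libraries. Ifit1bl1 and Iigp1 stand highest with IFNb, while Il1b, Cxcl1 and Tnf stand highest with LPS.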

How the data were processed

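Total RNA was sequenced in 8 libraries, 2 each for IFNb, LPS, IFNb with LPS, and saline. The authors deposited TPM (transcript abundances scaled to the same sum in every library) per Ensembl transcript; kallisto and the build mm10 are named per the submitters' processing notes, while the sources used here give neither its version and options nor any use of strand. Of 88198 transcripts in each file, 86119 matched the annotation and were summed to 30284 genes; the other 2079 held 1.01% to 1.95% of the TPM of a library. TPM keep no depth, so no counting intervals are given.

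Genes that reached 1 TPM in 2 or more libraries entered 1 limma-trend fit (limma 3.58.1, R 4.3.3) of log2(TPM + 1) over all 8 libraries, with 1 mean per group; the pseudocount of 1 understates changes of low genes. Tests were limma's moderated, two-sided tests with Benjamini-Hochberg adjustment over all 13009 genes, called under 0.05, for IFNb minus saline and IFNb minus LPS. Transcript shares were tested with limma's diffSplice, which called unchanged transcripts on simulated data more often than its adjusted p allows, so the log ratio of a transcript to the rest of its gene was tested as well. Promoters are from RefSeq's GRCm38.p6. Alternatives were other scalings, pseudocounts, filters, thresholds, fits of 4 libraries, a replicate block and leaving out each library.

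The members and lists were chosen with earlier results of these data known. The genes named were the 15 largest rises and falls (mean log2(TPM + 1) of at least 3, no overlap between groups, also called after median-ratio rescaling), the 15 largest each way in no list, up to 6 per direction of each list by adjusted p, all members of lists of 12 or fewer, a fixed set of pathway genes whatever their p, the 10 largest each way against LPS, and transcripts of pathway genes; the other transcripts named were picked, after their values were seen, from those with large shifts that both tests called. Abca1, Arg1, B2m, Bak1, Cgas, Ebi3, H2-D1, H2-K1, Ifi202b, Il12b, Ly96, Mx2, Nfkbia, Nlrp3, Oasl1, Pnp, Pnp2, Samhd1, Tlr2, Tmem173 and Trim30b fall outside that rule and were chosen after their values were seen. Long noncoding RNAs were not analysed here, and some members of the lists are counted but not reported by name.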

Additional observations from a re-analysis of the deposited data

How the results depend on the processing

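Of 3463 comparisons of the 248 genes named with saline against alternatives, 3367 kept their side of the threshold, 72 lost the call and 23 gained one; 28 of the losses came from asking for a change of at least 2-fold. In the remaining comparison Cxcl16, called lower as deposited, changed sign and lost its call after median-ratio rescaling (log2 0.0036). Genes that did not pass changed sign in 31 comparisons over 16 genes, among them Ifnar1, H2-Ab1, Tlr2 and Cd14 after rescaling. Counts of genes moved more. After median-ratio rescaling 4150 genes differed from saline, 1829 of them lower. At an adjusted p of 0.01, 4263 differed from saline (2970 lower), and 3144 from LPS (1833 higher, 1311 lower). With a change of at least 2-fold, 2577 differed from saline (1058 higher, 1519 lower) and 2361 from LPS (1399 higher, 962 lower). With 1 library left out, 4717 to 6290 genes differed from saline, 1378 to 1784 higher and 3339 to 4762 lower, the fewest lower without IFNb 1; 3366 to 3611 differed from LPS, 1943 to 2092 higher and 1423 to 1519 lower, the fewest lower without IFNb 2. Transcripts with a changed share numbered 282 to 589 with 1 library left out, 266 at 5 TPM or more, 150 by the log ratio and 114 by both tests. Of 154 counts over lists, 50 moved by over 1.5 times after rescaling. The causes were not tested.

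The interferon-stimulated response element core stood in 15.4% of the promoters of genes that rose after rescaling, in 22% of those with a 2-fold rise, in 14.4% (all genes, 7.95%) when only the 250 bases before the start were read, and in 15.3% (all genes, 7.7%) in the first listed window. The gamma-activated site stood in 10.7% with a 2-fold rise, 7.3% (all genes, 7.37%) in the 250 bases, and in 7.17% of all genes in the first window. The NF-kB like pattern stood in 7.32% with a 2-fold rise, and in 7.43% and 7.34% of all genes in those 2 windows. Shorter windows hold fewer matches by construction.

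Whether the replicate numbers pair the libraries is not stated. Deviations of libraries with the same number from their group mean had a correlation of -0.11 across genes for IFNb and saline and -0.14 for IFNb and LPS. With 2 libraries a group, the deviations of a group mirror each other, so these correlations cannot decide whether the libraries were paired. With the numbers as a replicate block over all 8 libraries, 6493 genes differed from saline and 4718 from LPS; over the 4 libraries alone 3575 differed from saline, 2357 of them lower. With the numbers crossed as a block over 4 libraries, a fit chosen after seeing the data, 5297 genes differed from saline and 5099 from LPS. TPM keep no depth, so what sequencing depth limits is unknown, and 2 libraries a group limit the precision throughout.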

Other observations

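Secreted and housekeeping groups outside the accounts above also held large changes. The shares of all genes to read beside their counts were 13% for rises and 38.6% for falls (after rescaling, 17.8% and 14.1%). Of 17 complement genes, 7 rose and 5 fell (after rescaling, 7 and 3; the falls numbered 3 without IFNb 1, 3 without IFNb 2 and 3 without Saline 1). Cfb, factor B of the alternative pathway, had 323 and 421 TPM with IFNb, against 24.9 and 16.3 TPM with saline (log2 fold change 4.13 ± 0.25, adjusted p = 4.37e-05). C3ar1, the receptor for the C3a peptide, had 973 and 937 TPM with IFNb, against 532 and 484 TPM with saline (log2 fold change 0.91 ± 0.09, adjusted p = 0.000396). The receptor of C3a was thus higher and that of C5a, described above, lower with IFNb. Of 10 growth factors, 2 rose and 5 fell (after rescaling, 2 and 4). Csf1, the growth factor of macrophages themselves, had 102 and 86.0 TPM with IFNb, against 6.10 and 12.8 TPM with saline (log2 fold change 3.26 ± 0.29, adjusted p = 0.000288), and Hbegf, a ligand of the EGF receptor, rose (log2 1.57, adjusted p = 0.000421). Pdgfb, a growth factor for mesenchymal cells, had 1.31 and 0.995 TPM with IFNb, against 4.78 and 6.44 TPM with saline (log2 fold change -1.61 ± 0.18, adjusted p = 0.000727), and Igf1 fell (log2 -0.96, adjusted p = 0.000286).

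Of 23 cell cycle genes, 5 rose and 6 fell (after rescaling, 6 and 2; the falls numbered 3 without IFNb 1 and 3 without IFNb 2). Ccnd1, a cyclin of the start of the cycle, had 35.3 and 43.4 TPM with IFNb, against 2.96 and 2.02 TPM with saline (log2 fold change 3.54 ± 0.21, adjusted p = 3.89e-05). Cdkn1a, the inhibitor p21, had 181 and 142 TPM with IFNb, against 48.4 and 60.7 TPM with saline (log2 fold change 1.55 ± 0.16, adjusted p = 0.000475). Both a cyclin and an inhibitor were thus higher with IFNb, while the replication helicase gene Mcm2 fell (log2 -0.90, adjusted p = 0.00436) and its partner Mcm6 rose (log2 1.38, adjusted p = 0.0014). Of 21 genes of lysosomes and autophagy, 4 rose and 9 fell (2 after rescaling). Ctsc, a cathepsin that activates granule proteases, had 651 and 843 TPM with IFNb, against 144 and 131 TPM with saline (log2 fold change 2.42 ± 0.16, adjusted p = 6.56e-05), and the autophagy receptor Sqstm1, for p62, had 225 and 233 TPM with IFNb, against 632 and 643 TPM with saline (log2 fold change -1.47 ± 0.11, adjusted p = 0.000106). All values are from the same limma fit as above, on log2(TPM + 1) with Benjamini-Hochberg adjustment.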
